A study of Drosophila melanogaster with 23 samples.

Results

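Prip encodes an aquaporin, and its transcript was followed here in Drosophila S2R+ cells during a shift from 25 °C to 14 °C. The gene was represented on the microarray by 1 probe, A_09_P006491, out of 32162 distinct gene probes, and this probe was spotted at 2 positions of each array. It had been picked because its signal at 72 h in the cold was far above that at 25 °C. Values that set 72 h or any other group against 25 °C are therefore given as a description without a test.

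Aquaporins are membrane channels of the major intrinsic protein family. They let water pass along osmotic gradients, and members of some subfamilies also pass glycerol or other small solutes. The other family members of the fly are Drip, bib and the Eglp genes. Insect aquaporins are best known from epithelia that move water, such as the renal tubules, and they have also been studied in insects that survive freezing or dehydration. Each of them is an integral membrane protein, so that a transcript level does not by itself give the number of channels at the cell surface.

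S2R+ is a line of cultured cells that was derived from embryos and resembles hemocytes, the blood cells of the fly. All cultures were first kept at 25 °C for 36 h. The 2 groups at 25 °C were 0 h, sampled at that point (3 arrays), and t12_25, sampled after 12 h more at 25 °C (3 arrays). Per the study, earlier cell counts had put cultures like t12_25 at about the density of cultures kept at 14 °C for 72 h. At 14 °C, cultures were sampled at 4 h on 5 arrays, at 12 h on 3, at 24 h on 5 and at 72 h on 4. All cultures were untreated otherwise and came from a single line, and RNA of whole cultures was hybridized in 1 colour. Time at 14 °C and time in culture beyond these 12 h cannot be told apart in this design.

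The 23 arrays lay on 7 slides and were scanned on 2 dates. On a single array, 46.8% to 58.1% of the probes exceeded the background clearly. The quantification software placed 6 arrays outside its quality range, and 3 of the 4 arrays of the 72 h group were among them. The others were the 12 h arrays of replicates 2 and 3 and the 4 h array of replicate 5. At 12 h, only the array of replicate 1 thus lay within the range. Only slide 2 joined the 4 h and 24 h groups to the others. Its 4 h, 12 h and 72 h arrays lay outside the range, and its 24 h array within it. Fits with slide as a block compare 4 h or 24 h with the other groups only through this slide. Among hemocyte markers, 2 of 12 could be paired with a probe, and both, srp and vkg, were well above background on 23 of 23 arrays. Of 10 paired markers of muscle, neuron, fat body, renal tubule and gut, twi, Yp1, Uro and alphaTry were well above background on 0 arrays. The renal tubule markers tsh and ct and the neuronal gene Syt1 were above it on 23 arrays, Amy-d on 13, brp on 5 and wupA on 1. Among these, ct was lower in the cold, at 9.06 ± 0.40 at 72 h (SD, n = 4), against 10.04 ± 0.31 at 25 °C (SD, n = 6), with an adjusted p of 0.000262 in limma, and its part in any result was not tested.

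Prip was measured well above the limits of the arrays. The raw signal of its 46 spots was between 538 and 6830, against local backgrounds of 18 to 36. It was well above background on 23 of 23 arrays, and no spot was saturated or flagged. Before any normalization, raw signals were already between 836 and 1300 at 0 h and between 538 and 1100 at t12_25. They were between 580 and 1515 at 4 h, between 984.5 and 2327 at 12 h, between 1437 and 3081 at 24 h and between 4346.5 and 6830 at 72 h. The lowest raw signal at 72 h thus lay above the highest raw signal of every other group. The second spot was brighter than the first on 23 of 23 arrays, by 0.07 to 0.32 on the log2 scale (median 0.15), and the median over both was used.

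The normalized log2 intensities of Prip at 25 °C were 9.66, 9.72 and 10.04 at 0 h and 9.80, 9.48 and 9.60 at t12_25. At 4 h in the cold they were 9.84, 9.49, 9.705, 9.94 and 10.11. These values, from 9.49 up to 10.11, overlapped with the 25 °C arrays, which lay between 9.48 and 10.04. The 12 h arrays had log2 intensities of 10.38, 10.34 and 10.78. The 24 h arrays had 11.11, 10.99, 11.03, 10.76 and 11.43, and the 72 h arrays had 12.49, 12.48, 12.62 and 12.34. Every 12 h array was above every 4 h and 25 °C array, and the lowest 24 h array was just below the highest 12 h array. The 4 arrays of 72 h lay far above all others, with the lowest of them 0.91 above the highest 24 h array.

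**Figure D1:**
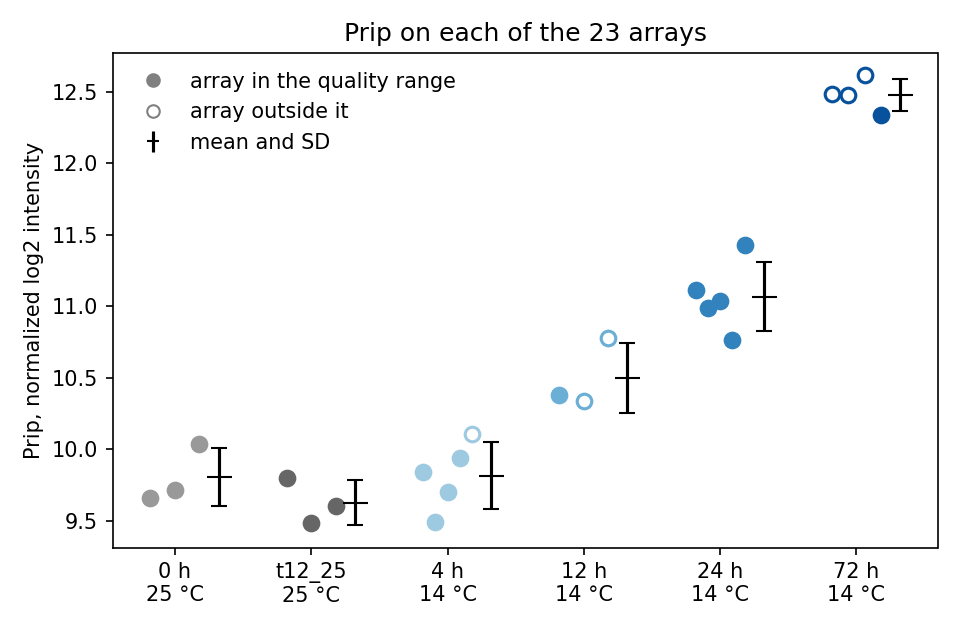
Normalized log2 intensity of Prip (vertical axis) on each of 23 arrays, by group in order of time (horizontal axis). Each point is an array, open points are the 6 arrays outside the quality range, and bars give the mean and SD, with a mean of 9.82 for the 4 h group and of 12.48 for the 72 h group.

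The mean log2 intensity was 9.81 ± 0.20 at 0 h (SD, n = 3) and 9.63 ± 0.16 at t12_25 (SD, n = 3), and 9.72 ± 0.19 over both (SD, n = 6). It was 9.82 ± 0.23 at 4 h (SD, n = 5), 10.50 ± 0.24 at 12 h (SD, n = 3), 11.07 ± 0.24 at 24 h (SD, n = 5) and 12.48 ± 0.11 at 72 h (SD, n = 4). In the order of these levels, t12_25, 0 h and 4 h were neighbours that differed by no more than their spread. The 12 h, 24 h and 72 h groups followed. RNA of whole cultures was measured on a scale relative to all other transcripts, so that more Prip transcript per cell and a larger share of cells with the transcript cannot be told apart.

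Whether Prip moved within the cold was tested between groups other than 25 °C and 72 h, which had led to its choice. The arrays of those groups entered the fit only through the shared estimate of the spread. At 24 h its mean log2 intensity was 11.07, against 9.82 at 4 h, a rise of 1.25 (SE 0.13) or 2.38-fold. The adjusted p was 2.12e-06 (limma, two-sided, Benjamini-Hochberg over all 32162 probes), and 5 of 5 arrays at 24 h were above every 4 h array. In this comparison 6.45% of all probes passed an adjusted p of 0.05 and 0.445% also changed at least 2-fold. Prip ranked 13 of 32162 in log2 difference. All 5 arrays of both groups came from the same 3 slides, and within these slides the log2 difference was 1.32 (slide 2, 1 array each), 1.30 (slide 4, 2 arrays each) and 1.16 (slide 7, 2 arrays each). Fitted on the 4 h, 12 h and 24 h arrays alone, the same difference had an adjusted p of 0.000109 in limma. The rise kept its side of the threshold when any of the 23 arrays was left out, with adjusted p-values between 1.98e-06 and 1.44e-05 in limma.

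The rise was next divided at 12 h. Log2 intensities at 12 h averaged 10.50, against 9.82 at 4 h, a difference of 0.68 (SE 0.15) or 1.60-fold. This passed the adjusted p (0.0198 in limma, where 1.47% of all probes passed) but was below the 2-fold limit, which 0.0653% of probes also passed. Unlike that at 24 h, this call was lost under several settings. With slide as a block, the difference was 0.25 and the adjusted p 0.661 in limma. On slide 2, the only slide with arrays of both groups, it was 0.23. That slide held the 12 h array of replicate 2 and the 4 h array of replicate 5, both outside the quality range. No other slide joined 4 h or 24 h arrays to the other groups, so the value with slide as a block rested on slide 2 as well. Leaving out the 12 h array of replicate 3 gave 0.54 (adjusted p 0.173 in limma), without that of replicate 2 the adjusted p was 0.0522, and without the 4 h array of replicate 2 it was 0.0551. Fitted on the 4 h, 12 h and 24 h arrays alone it was 0.04995 in limma, just under the threshold.

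Log2 intensities at 24 h averaged 11.07, against 10.50 at 12 h. The difference of 0.57 (SE 0.15) did not pass after adjustment (adjusted p 0.132 in limma, where 0.308% of all probes passed), and the groups overlapped. It was 1.09 on slide 2 and 1.00 with slide as a block, where the adjusted p was 0.0250 in limma. Both values rested on slide 2, the only slide with 12 h and 24 h arrays, where the 12 h array lay outside the quality range. Which of these steps was the larger depended on the setting. The later step was the larger in 7 of 39 alternatives, among them slide and scan date as blocks, median scaling, the fit without arrays outside the quality range and that without the 12 h array of replicate 3.

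At 25 °C, 12 h of further growth did not shift Prip beyond the spread of the arrays. The log2 intensity averaged 9.63 at t12_25, against 9.81 at 0 h, a difference of -0.18 (SE 0.16, adjusted p 1.00 in limma). On the slides shared by both groups the difference was -0.43 (slide 1) and 0.13 (slide 3). In this comparison 0 of 32162 probes (0%) passed the adjusted p in limma and 1303 had an unadjusted p under 0.05, and with 3 arrays against 3 the precision was limited. Over alternative settings up to 50 probes passed.

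Set against the pooled 25 °C arrays, the log2 intensity of Prip differed by 0.10 at 4 h and by 0.78 at 12 h. The difference was 1.35 at 24 h, and at 72 h it was 2.76. The value at 4 h was small against the spread and not stable, with 0.53 for slide as a block, -0.10 for median scaling, 0.03 without the 4 h array of replicate 5 and 0.18 without that of replicate 2. On the fold scale the differences were 1.07, 1.72, 2.55 and 6.79. Among all 32162 probes ordered by this log2 difference, Prip was at rank 5532 after 4 h, rank 592 after 12 h, rank 106 after 24 h and rank 11 after 72 h. These values led to the choice of the gene and carry no test. For all probes, 369 were higher at 72 h by at least 2-fold with an adjusted p under 0.05 (1.15%).

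At 72 h the difference hardly varied among slides. The log2 difference between 72 h and 25 °C was 2.80 on slide 1, 2.85 on slide 5 and 2.77 on slide 6. Between 12 h and 25 °C it was 0.96 on slide 1 and 0.65 on slide 3. The 4 h and 24 h groups shared no slide with any 25 °C array. Slide 2 alone linked them to 25 °C, through the 12 h and 72 h arrays of replicate 2, both outside the quality range. Within scan dates, the 24 h value was 1.31 (date 1) and 1.61 (date 2), and the 4 h value 0.08 (date 1) and 0.29 (date 2). Against the t12_25 group, matched in density by earlier counts of the study, the 72 h group was higher by 2.85. On the 2 slides that both shared it was higher by 3.01 and 2.85. For 12 h at 14 °C against t12_25, which had spent the same time in culture, the difference was 0.87. Without the arrays outside the quality range, the 72 h group consisted of 1 array, and its log2 difference was 2.62 against all 25 °C arrays and 2.71 against t12_25.

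**Figure D2:**
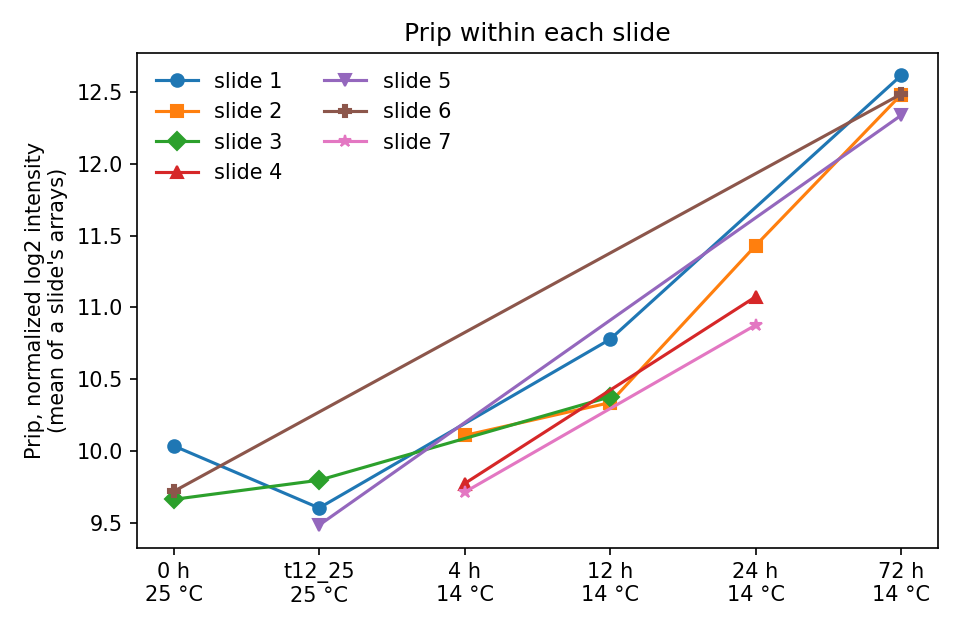
Mean normalized log2 intensity of Prip over the arrays of a slide (vertical axis) by group in order of time (horizontal axis), with a line for each of 7 slides. Lines climb between the warm and the 72 h arrays on slides 1, 5 and 6 by 2.77 to 2.85, and between 4 h and 24 h on slides 2, 4 and 7 by 1.16 to 1.32.

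On the linear scale, the time course had a different look than on the log2 scale. Mean normalized intensities were 848 ± 115 at 25 °C (SD, n = 6), 911 ± 146 at 4 h (SD, n = 5), 1460 ± 257 at 12 h (SD, n = 3), 2170 ± 375 at 24 h (SD, n = 5) and 5727 ± 448 at 72 h (SD, n = 4). Between 25 °C and 4 h the gain was 15.8 units per hour (SE 20.1), which was within its error. It was 68.6 units per hour (SE 20.3) between 4 h and 12 h, 59.2 (SE 18.7) between 12 h and 24 h and 74.1 (SE 5.83) between 24 h and 72 h. Expressed in percent of the 25 °C intensity, these gains were 8.09%, 6.98% and 8.74% per hour. The gain over the last 48 h was 1.08 times that between 4 h and 12 h, and the 3 values differed by less than the errors of the early intervals. The similar gains did not hold with slide as a block, where they were 11.04%, 3.38%, 14.3% and 7.46% of the 25 °C intensity per hour over the 4 intervals. These block values join 4 h and 24 h to the other groups only through slide 2, whose 12 h and 72 h arrays lay outside the quality range. On the log2 scale of the group means, the hourly step shrank, with 0.085 between 4 h and 12 h, 0.047 between 12 h and 24 h and 0.029 between 24 h and 72 h. With 4 time points in the cold, the shape between 24 h and 72 h was not sampled.

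**Figure D3:**
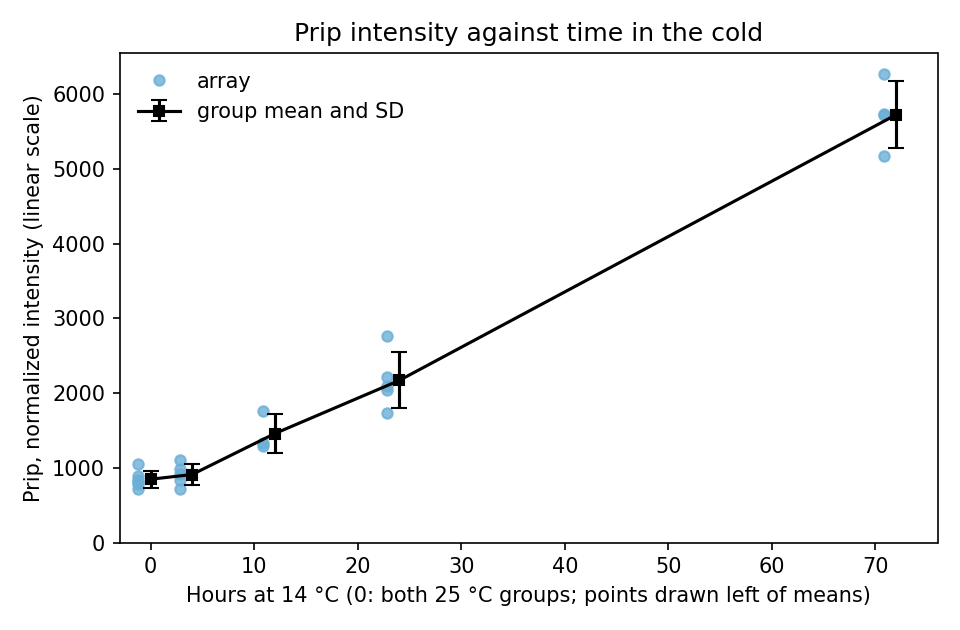
Normalized intensity of Prip on a linear scale (vertical axis) against hours at 14 °C (horizontal axis), with each array as a point and group means with SD joined by lines. After 4 h the segments have similar slopes, with hourly gains of 68.6, 59.2 and 74.1 units.

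Prip was set beside other probes that were higher at 72 h for how much of the final change was reached early. Of its log2 change at 72 h, 3.60% was reached at 4 h, 28.2% at 12 h and 48.9% at 24 h. The median over the 369 probes that were higher at 72 h was 27.9% at 4 h, 60.8% at 12 h and 75.4% at 24 h. Shares below that of Prip were found for 11.7% of these probes at 4 h, 19.0% at 12 h and 22.2% at 24 h. With slide as a block, Prip had reached 18.8%, 27.6% and 63.3% at these times, beside medians of 26.8%, 56.4% and 71.9%. It then lay below the lower quartile of the 369 probes only at 12 h (31.6%), and not at 4 h (8.34%) or 24 h (50.3%). On the linear scale, with no block, Prip had reached 1.30%, 12.5% and 27.1% of its gain at these times. In 101 of the 369 probes (27.4%) the linear gain per hour between 24 h and 72 h was at least that between 4 h and 12 h, as for Prip, and in 99 the mean at 24 h was below that at 12 h. All of these shares are descriptions, as the probes were chosen from the same arrays and Prip is one of them.

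**Figure D4:**
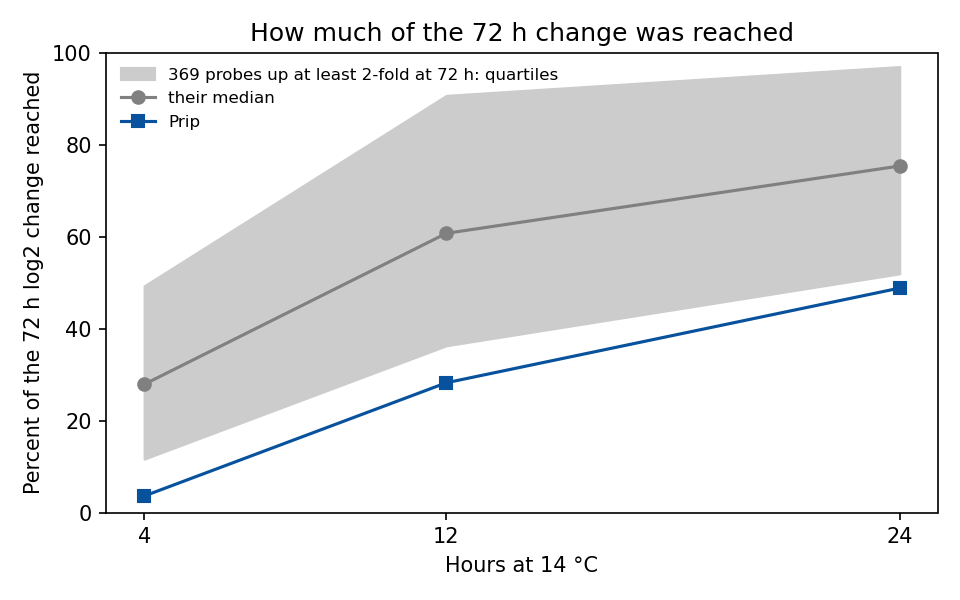
Percent of the log2 change at 72 h that was reached (vertical axis) at 4, 12 and 24 h in the cold (horizontal axis), for Prip (squares) and for 369 probes higher at 72 h (circles for the median, shading between quartiles). With no block for slide, Prip lies below the lower quartile at each time, with 48.9% at 24 h against a median of 75.4%.

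The last interval accounted for the remainder. Log2 intensity at 72 h was 1.41 above that at 24 h, a 2.66-fold difference that ranked 15 of 32162 among all probes. On slide 2, which held an array of each group, it was 1.05. Both values involve the 72 h arrays for which Prip was picked.

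Next, probes with the time course most like that of Prip were sought, by Pearson's r over 23 arrays among 1573 probes whose group means spanned at least 1 on the log2 scale. All points share the arrays and their normalization, and no test was applied. An r of at least 0.9 was found for 86 probes and of at least 0.95 for 23, and 43 had an r of -0.9 or below. The highest r was 0.986, for a probe without a gene name here. Only 276 of the 1573 probes could be named.

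GstE2, a glutathione S-transferase of the epsilon class that conjugates reactive compounds to glutathione, was the named gene most like Prip (r = 0.982), though CG34305 came first with median scaling and CG17124 with the 75th percentile of the processed signal. Its log2 intensity at 72 h was between 9.26 and 9.44 on 4 arrays, against 7.89 to 8.20 on 6 arrays at 25 °C. The log2 difference was 0.04 and 0.40 at 4 h and 12 h, and 0.68 and 1.29 at 24 h and 72 h. As for Prip with no block for slide, there was hardly any difference at 4 h and a large part of it came after 24 h. With slide as a block, Prip was at 0.53 at 4 h and had reached 63.3% of its change at 24 h. No such values are given for GstE2. With no block, the amplitude of GstE2 was smaller than that of Prip at each time from 12 h.

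CG17124 (r = 0.970) had the largest log2 difference at 72 h among the 8 most similar named genes, 2.58. It was between 9.73 and 10.03 at 72 h, against 7.04 to 7.53 at 25 °C. Its difference at 24 h was only 0.86. CG5321, CG2201, CG33494, CG34328 and CG34305 had an r between 0.948 and 0.972 and log2 differences at 72 h between 1.04 (CG2201) and 2.04 (CG34328).

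The receptor gene drpr (Draper), which hemocytes and glia use to engulf dying cells, was the eighth named gene (r = 0.947). It was between 9.50 and 9.95 at 72 h, against 7.29 to 7.73 at 25 °C, with a log2 difference of 2.18. It differed by 0.58 already at 4 h, where its lowest array was 7.87, and by 1.07 and 1.08 at 12 h and 24 h. At 4 h Prip differed by 0.10, but no 4 h array shared a slide with 25 °C. With slide as a block the values were 0.87 for drpr and 0.53 for Prip. These block values rest on the link through slide 2, whose 4 h, 12 h and 72 h arrays lay outside the quality range. Second probes of drpr, CG5321 and CG2201 had smaller log2 differences at 72 h (0.72, 0.33 and 0.80), and that of CG5321 was well above background on only 3 arrays.

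The 4 named genes with the most opposite time course were CG12896 (r = -0.960), CG34232 (-0.947), Prx6c (-0.946) and CG15706 (-0.937). Prx6c, a peroxiredoxin that reduces peroxides, had log2 intensities between 7.36 and 8.55 at 72 h, against 11.24 to 12.27 at 25 °C, a difference of -3.92. CG12896, which also carries a peroxiredoxin name among its synonyms in the reference table, differed by -3.97. Whether the probes of these 2 genes separate their transcripts was not tested. A second probe of Prx6c was well above background on only 1 array. CG34232 differed by -3.24 and CG15706 by -1.47 at 72 h.

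**Figure D5:**
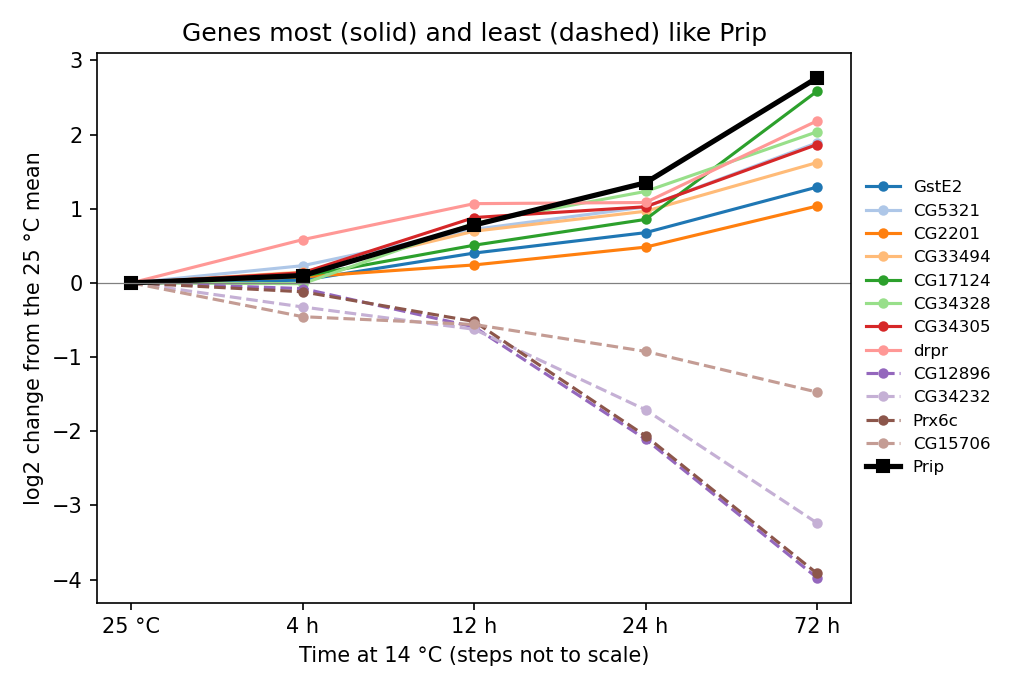
Difference in log2 intensity from the 25 °C mean (vertical axis) by time at 14 °C (horizontal axis, steps not to scale) for Prip (black squares), the 8 named genes most like it (solid lines) and the 4 least like it (dashed lines). At 72 h Prip stands at 2.76 and CG17124 at 2.58, and CG12896 and Prx6c lie at -3.97 and -3.92.

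Other genes of water and solute handling were then examined from lists. In the aquaporin family, Prip was the only 1 of 7 genes that could be paired with a probe, so that its relatives were not analysed here. None of 22 genes of ion transport could be paired (0 of 22). Of 18 genes for subunits of the V-ATPase, the proton pump that energizes ion and water transport across insect epithelia, 2 could be paired. VhaAC45 was at 15.07 ± 0.21 at 72 h (SD, n = 4), against 14.71 ± 0.24 at 25 °C (SD, n = 6), a log2 difference of 0.36 that passed (adjusted p 0.0405 in limma). Its second, dimmer probe differed by 0.54 and did not pass (adjusted p 0.160 in limma). Vha16-1 differed by 0.09 at 72 h and did not pass (adjusted p 0.603 in limma).

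Among 16 genes for glycerol, trehalose and other compatible solutes, 2 could be paired. Gpdh1, the glycerol-3-phosphate dehydrogenase that links glycolysis to glycerol synthesis, was at a log2 intensity of 10.12 ± 0.22 at 12 h (SD, n = 3), against 9.21 ± 0.33 at 25 °C (SD, n = 6). The rise of 0.91 had an adjusted p of 0.00384 in limma, and at 24 h and 72 h it rose by 0.51 and 0.68 (adjusted p 0.0470 and 0.0112 in limma). At 4 h the difference was 0.51 and did not pass (adjusted p 0.0964 in limma). In contrast to Prip, its highest mean was thus at 12 h. Of its 3 other probes, 2 passed at 12 h, 24 h and 72 h and the other one passed at none of these times. Treh, the enzyme that cleaves trehalose, differed by 0.23 at 72 h and did not pass (adjusted p 0.221 in limma).

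Of 11 genes known from cold responses of flies, 3 could be paired, all for heat shock proteins. Hsp23, a small chaperone, was at 7.25 ± 0.74 at 72 h (SD, n = 4), against 9.19 ± 0.54 at 25 °C (SD, n = 6), and fell by 1.95 on the log2 scale (adjusted p 0.000755 in limma). Hsp26, another small chaperone, rose by 1.19 at 12 h and by 0.92 at 24 h (adjusted p 0.0176 and 0.0256 in limma), and its difference of 0.54 at 72 h did not pass (adjusted p 0.264 in limma). Hsp68 passed at no time, with a log2 difference of -0.19 at 72 h.

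Counted together, 7 genes of these lists other than Prip were measured. At 4 h, 3 of 7 had an unadjusted p under 0.05, as did 4842 of all 32162 probes. None (0 of 7) passed the adjusted p in limma, where 6.05% of all probes passed. At 12 h, 2 of 7 passed (background 11.6%), at 24 h 2 of 7 (15.6%) and at 72 h 3 of 7 (17.2%). The count at 72 h was 1 with median scaling and between 2 and 4 under the other alternatives. The number of all probes that passed varied as well, from 5539 in the main fit to 7062 with median scaling. It was 5136 with offset 0 (2 of 7 listed genes), 9032 with the authors' values (4 of 7) and 13993 with the 75th percentile (2 of 7). The 7 genes were well above background on 23 of 23 arrays, unlike many of all probes. Among the 18858 probes well above background on at least 3 arrays, 2031, 3961, 5199 and 5729 passed at 4 h, 12 h, 24 h and 72 h. With the 2-fold limit, 0, 1, 0 and 1 of the 7 genes remained at these times, against 0.376%, 1.28%, 1.64% and 2.12% of all probes. The median log2 difference over the 7 genes was 0.02, 0.14, 0.13 and 0.23, while that over all probes was within 0.01 of 0 at each time. With so few genes measured, the lists describe these genes and not the processes.

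Finally, the genes beside Prip on chromosome arm 2R were examined. In the gene order of assembly Release 6, Drip, another aquaporin gene, was the third gene before Prip, and qvr, E(Pc) and inv followed Prip. None of these 4 could be paired with a probe. Of the 5 nearest genes on each side that could be, 0 of 10 passed the adjusted p at 72 h in limma, where 17.2% of all probes passed. An unadjusted p under 0.05 was found for 2 of 10, beside 8618 of all 32162 probes. Among the 10, CG34054, Smyd4-3 and Sod3 were well above background on 0 arrays and CG13198 on 1, so that little can be read from these. CG7763, the second gene before Prip, differed by 0.13 at 72 h, at a log2 intensity of 6.42, against 6.29 at 25 °C, and was well above background on 14 arrays. On the other side, tou, which encodes a chromatin remodelling factor and is the fifth gene after Prip, was the nearest gene measured. It rose by 0.51 at 12 h and 0.46 at 24 h (adjusted p 0.0150 and 0.00711 in limma) and differed by 0.04 at 72 h (adjusted p 0.902). Its second probe differed by 0.67, 0.38 and 0.37 at these times and passed at none. CG7763 passed at 12 h, with a log2 rise of 0.20 (adjusted p 0.0353 in limma). Between 72 h and 25 °C, log2 differences of the 10 neighbours were between -0.33 (sprt) and 0.52 (CG34228), against 2.76 for Prip.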

How the data were processed

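RNA of S2R+ cells was hybridized to 23 Agilent arrays of 1 colour. Per the file headers, the authors quantified the scans with Agilent Feature Extraction 10.7, and the deposited intensities were not normalized between arrays. A deposited table of log2 values (32161 probes), which the authors corrected with normexp, normalized by quantiles and adjusted for surrogate variables, served as an alternative only.

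Median spot intensities were corrected with normexp (offset 50) in limma 3.58.1 (R 4.3.3). Local backgrounds of 23 gene spots above 3 times the array median were set to that median. Values were normalized by quantiles over 43602 gene spots and transformed to log2, flagged spots were left out (51 missing probe values) and the median over the spots of a probe was taken.

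Groups were taken from sample titles. All 23 arrays and 6 groups were fitted together with lmFit and eBayes, with Benjamini-Hochberg adjustment over 32162 probes, two-sided. Calls used an adjusted p of 0.05, with and without a 2-fold limit. The 0 h and t12_25 arrays were pooled as 25 °C, as in the methods of the study. The methods speak of biological replicates without saying how cultures were related. Per the study, the experiment was repeated because some arrays gave data of poor quality. Which arrays came from which round is not stated there, so round could not be used as a block. Scripts were tested on simulated data.

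Gene names came from RefSeq accessions in the reference table (Release 6) and from probe annotation of the study. Of 32162 probes, 3937 were paired with a gene. Where a listed gene had several probes, the one with the highest mean was used. Named genes were Prip, listed aquaporins with a probe, the 8 most and 4 least similar named genes by r, the 5 nearest paired genes on each side and listed genes called at 72 h. The other listed genes with a probe are named because the lists yielded so few, which was decided after their values were seen. Prip, the lists and the tests were chosen with earlier results of these data known. Alternatives were background correction, scaling, the order of log2 and quantile steps, the authors' values, a filter, slide, scan date, replicate number, array quality and weights, each 25 °C group alone and leaving out each array. Same-numbered arrays were not paired. Deviations of 49 same-numbered array pairs correlated with a median r of 0.468, and 33 of them were above 0.1. In 169 pairs with different numbers the median r was -0.204, and 74 were above 0.1. Same-numbered arrays were thus more alike, and replicate number as a block is given as an alternative. Several same-numbered arrays also shared a slide, such as replicate 3 of 0 h, t12_25, 12 h and 72 h on slide 1. The likeness can therefore not be assigned to replicate number rather than slide. How precise the values are is limited by how few arrays each group had.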

Additional observations from a re-analysis of the deposited data

Results flagged for a closer look

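Prip differed between time points in the cold by a test of the difference itself. Its effect at 24 h exceeded that at 4 h by 1.25 on the log2 scale, and its effect at 12 h exceeded that at 4 h by 0.681. Fitted with a block for slide, the 12 h difference was 0.25 (adjusted p 0.661 in limma). That value rested on slide 2, whose 4 h and 12 h arrays lay outside the quality range. With no block the 12 h difference did not pass without the 12 h array of replicate 3 (adjusted p 0.173 in limma). Without arrays outside the quality range it was 0.63, with only replicate 1 left at 12 h. Single arrays stood apart from the rest of their group in 3 of 52 groups examined for Prip and the genes most and least like it, where chance gives about 1 in 20. GstE2 at 4 h had a log2 intensity of 7.93 in replicate 2, against 8.10 to 8.16 in the other 4 (gap 0.743 of the range). CG12896 at 25 °C had 12.63 in replicate 2 of t12_25, against 11.64 to 12.01 in the other 5 (gap 0.631 of the range). CG15706 at 4 h had 12.04 in replicate 5, against 12.19 to 12.23 in the other 4 (gap 0.760 of the range). No array of Prip stood out in this way at 25 °C, 4 h, 24 h or 72 h. Groups of 3 were not examined, and in the 12 h group replicate 3 had a log2 intensity of 10.78, against 10.38 and 10.34 in replicates 1 and 2.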

How the results depend on the processing

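The difference of Prip between 24 h and 4 h kept its direction under all 39 alternatives (log2 1.15 to 1.33) and passed under the 38 that gave a test, among them a fit on the 4 h, 12 h and 24 h arrays alone, which was added after seeing the data. That between 12 h and 4 h was positive under all 39. It did not pass with offset 0 (0.71, adjusted p 0.0563 in limma), median scaling (0.56, 0.314) or the 75th percentile of the processed signal (0.75, 0.121). Nor did it pass with slide as a block (0.25, 0.661) or as a random block (0.53, 0.0552). Slide as a block joined 4 h to 12 h only through slide 2, where the arrays of both groups lay outside the quality range. The cause of the lost calls was not tested. Without arrays outside the quality range the difference was 0.63, with only replicate 1 left at 12 h. Leaving out 1 array gave 0.54 to 0.76, and the mean within slides was 0.23. The adjusted p was lowest with the authors' values (0.000385 in limma). That between 24 h and 12 h passed with the authors' values (0.57, adjusted p 0.00237), slide as a block (1.00, 0.0250) or random block (0.72, 0.0270), scan date (0.68, 0.0153) and array weights (0.55, 0.0276), and was 1.09 within slides, with adjusted p-values between 0.00237 and 1.00 over 38 alternatives. Leaving out 1 array kept its side of the threshold (0.48 to 0.71). The t12_25 comparison kept its sign and passed nowhere.

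Against 25 °C, median scaling gave 0.46 at 12 h, 1.05 at 24 h and 2.34 at 72 h, reversed the small difference at 4 h to -0.10, and gave 2.51 for 72 h against t12_25. It moved the median of all probes by -0.11 at 72 h, and the 75th percentile moved it by 0.59. Relative to that median, Prip was then at 2.45 and 2.21 at 72 h and, for the 75th percentile, at -0.07 at 4 h. With slide as a block, Prip was at 0.53 at 4 h and 1.78 at 24 h, the share reached at 24 h was 63.3% (shares at 4 h and 12 h and linear gains with this block were added after seeing the data) and the difference between 72 h and 24 h was 1.03 (1.05 within slides). These block values rest on slide 2 as the only link of 4 h and 24 h to the other groups. Without arrays outside the quality range, 72 h exceeded t12_25 by 2.71.

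With the replicate block, the 24 h minus 4 h difference was 1.25 (adjusted p 7.26e-07), 12 h minus 4 h 0.75 (0.00273) and 24 h minus 12 h 0.51 (0.0562), and no call for Prip changed. It gave 829 in place of 472 probes past the adjusted p between 12 h and 4 h. Over all probes between 72 h and 25 °C, 681 were called, of which 54.2% were higher. The number was between 486 (no cap on local background) and 6624 (75th percentile, 90.0% higher), and with median scaling 1165 (17.1% higher). For 24 h against 4 h, 143 were called (35.7% higher), and between 99 and 426 under the alternatives. For 12 h against 4 h, 472 passed the adjusted p alone, 165 with median scaling and 4308 with the authors' values. The count was 240, 147 and 182 without the 12 h arrays of replicates 1, 2 and 3 and 285 without the 4 h array of replicate 2. For 24 h against 12 h, 99 passed it, 3 with median scaling and 3555 with the authors' values. Leaving out the 12 h arrays of replicates 1, 2 and 3 gave 48, 11 and 18, and leaving out 24 h arrays of replicates 1, 2 and 3 gave 62, 53 and 57. Probes with r of at least 0.95 to Prip numbered 23, 13 with median scaling and 35 with the authors' values, and at least 6 of the 8 most similar named genes were shared with each alternative. At 72 h only replicate 4 and at 12 h only replicate 1 lay within the quality range, which limits every value at those times.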
